A study of Homo sapiens with 14 samples.

Results

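The comparison described here is CALCRL siRNA against scrambled siRNA in human aortic endothelial cells. Its members are all 11261 genes of the authors' deposited siRNA table, of 12202 genes listed in that table or in the table of the other experiment of the study. It rests on 8 of the 14 RNA libraries. The study asked how an enhancer at a coronary artery disease locus relates to the expression of CALCRL, and knocking down the gene itself was one of its experiments. All cells were teloHAEC, a line of human aortic endothelial cells immortalised with telomerase, so all libraries come from 1 cell line. In 4 libraries the cells had been reverse transfected with siRNA against CALCRL, and in 4 with scrambled siRNA, and both groups were lysed 24 hours later. The labels name the reagents s19889 and s19890 for the target-specific and scrambled siRNAs, and the sequences of these siRNAs are not given in the sources used here. The remaining libraries, 3 with an enhancer deletion made by Cas9 complexes and 3 with a control guide against HPRT, were collected 2 days after electroporation and are used below only where a difference from the siRNA is tested. Libraries were prepared with a kit that reads near the polyadenylated end of each messenger and were sequenced for 86 cycles from 1 end.

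CALCRL encodes the calcitonin receptor-like receptor, a G protein-coupled receptor that binds adrenomedullin or calcitonin gene-related peptide together with an accessory membrane protein and signals mainly through cyclic AMP. In endothelial cells adrenomedullin signalling is known for its roles in vascular development and barrier function. A small interfering RNA is loaded into an Argonaute protein, and its guide strand pairs with messengers. Pairing along the whole guide leads to cleavage, and pairing of the first bases of the guide alone, the seed, with sites in a 3′ untranslated region (UTR) lowers messengers in the way a microRNA does.

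The table holds a mean over the 8 libraries, a log2 fold change and its standard error for each gene, and no value of a single library. The spread between libraries is therefore seen only through the standard error, and whether single values of the groups overlap could not be read. Group means given below, in normalised counts, were worked out from the 8-library mean and the fold change. Percents of control (the siRNA mean over the scrambled mean) carry 95% intervals from the standard error. Higher and lower, or rose and fell, are always relative to scrambled siRNA. No library of untransfected cells was at hand, so which of the groups changed cannot be told. A gene is called where the authors' adjusted p, by their DESeq2 Wald test with Benjamini-Hochberg adjustment, was under 0.05. Nothing in the labels says that the libraries of a group came from separate cultures, so p-values measure only the spread between these libraries, which may be technical.

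CALCRL, the targeted gene, fell from 318 to 108 normalised counts, which is 34.0% of control (95% interval 27.1 to 42.7). The authors' deposited table gives it a log2 fold change of -1.56 (SE 0.17, adjusted p = 1.9e-17 by the DESeq2 Wald test). The endothelial markers listed were 9 of 10, with summed means of 7265 normalised counts under scrambled siRNA and 6978 under CALCRL siRNA. EGFL7 was the 1 of these 9 that was called, and PECAM1 was the marker not listed. No fibroblast marker of 6 was listed, and smooth muscle cells and leukocytes were each represented by 1 gene, SMTN and CD68, which are not restricted to those cells. The epithelial keratins KRT8, KRT18 and KRT19, 3 of 6 epithelial markers, were listed with summed means of 4547 and 4070. Of 4 lymphatic endothelial markers, LYVE1 and PDPN were listed, with summed means of 196 and 148, and neither was called. LYVE1 stood at 68.8% of control (49.6 to 95.4), while PDPN lay above 0, with a log2 fold change of 0.09. In bulk RNA, fewer cells expressing a gene and less of its RNA per cell cannot be told apart.

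Of the 11261 genes, 390 were called, a share of 3.46%. Higher genes numbered 118 (1.05%) and lower genes 272 (2.42%). Most changes were small. Only 27 called genes changed by at least 1 on the log2 scale, 215 by 0.5 to 1 and 148 by less. The median called lower gene stood at 67.4% of control and the median called higher gene at 1.42-fold. Over all genes the median log2 fold change was 0.00, and 49.4% of genes lay below 0. Calls were more frequent among abundant genes: in the least abundant of 5 equal groups of genes, with means up to 35.7 normalised counts, 0.533% were called, and in the most abundant group 5.60%. The median standard error was 0.37 in the former and 0.11 in the latter.

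**Figure D1:**
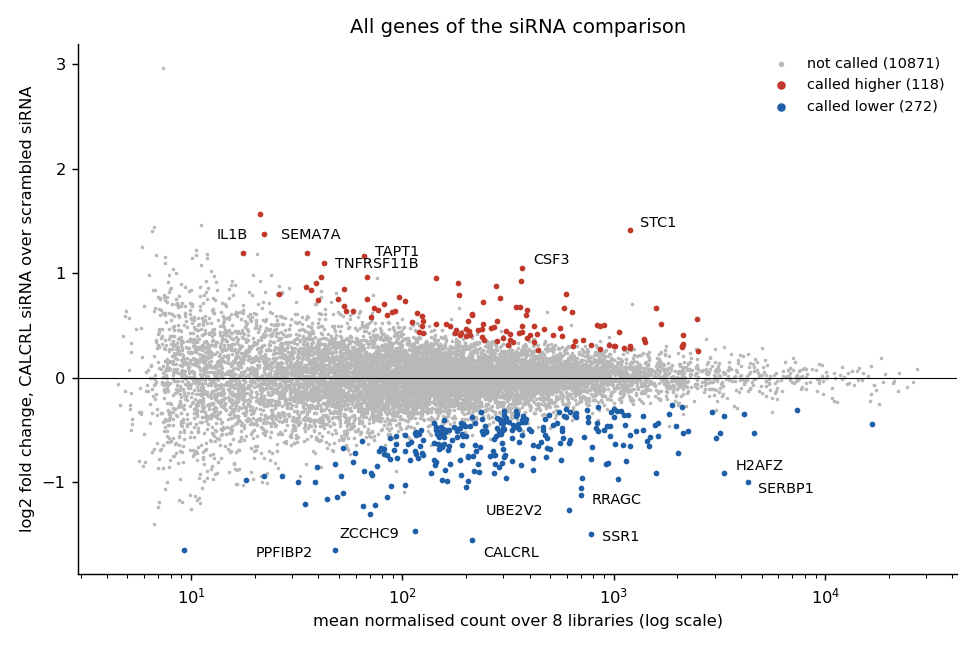
Each point is 1 of the 11261 genes, with its mean normalised count over the 8 libraries on a log axis and its log2 fold change on the vertical axis; 118 called higher genes are red and 272 called lower genes blue. CALCRL and SSR1 lie near the bottom at -1.56 and -1.49, and STC1 stands alone at 1.41 among genes of its abundance.

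The 3 lower genes with the smallest adjusted p were outside the receptor's own pathway. SSR1, a subunit of the translocon-associated protein complex of the endoplasmic reticulum, fell from 1152 to 410 normalised counts, 35.6% of control (95% interval 31.3 to 40.5). RRAGC, a Rag GTPase that brings mTORC1 to the lysosome, fell from 962 to 441, or 45.8% (41.0 to 51.3). UBE2V2, a partner of a ubiquitin-conjugating enzyme, fell to 41.7% (36.7 to 47.3). In the authors' deposited table these 3 had adjusted p-values of 1.59e-51, 1.64e-38 and 6.92e-38, all below that of CALCRL itself.

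Behind them came CAV2 (56.7% of control), a caveolin of endothelial plasma membrane pits, and ZCCHC9 (36.3%), a zinc knuckle protein. CTNNB1, which encodes beta-catenin, a junction and Wnt pathway protein, stood at 56.4%. RAB14, a GTPase of endosome traffic, stood at 51.4%. LRRC8A, a subunit of the volume-regulated anion channel, stood at 63.1%, and YWHAG, a phosphoserine-binding adaptor, at 63.8%. PRKACB, a catalytic subunit of protein kinase A, fell from 354 to 188 normalised counts (95% interval 45.7 to 61.5% of control). The abundant messengers H2AFZ, a histone variant, and SERBP1, an RNA-binding protein, fell from 4363 to 2314 and from 5719 to 2866 normalised counts. CNRIP1, a protein that binds a cannabinoid receptor, stood at 56.0%, and PPP2CB, a catalytic subunit of protein phosphatase 2A, at 63.5%.

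Among lower genes averaging 30 normalised counts or more, the largest fold change belonged to PPFIBP2, a liprin, at 31.9% of control (18.8 to 54.2). HS3ST1, a heparan sulfate sulfotransferase, stood at 40.5% (28.7 to 57.2), PRKAA2, a catalytic subunit of AMP-activated kinase, at 42.8% and SC5D, an enzyme of cholesterol synthesis, at 43.1%. The long noncoding gene RP11-157P1.4 stood at 43.2%, FAM46A at 44.7%, TM4SF18 and BNC1 at 45.4% each, DNMT3A, a DNA methyltransferase, at 46.6% and RAB1A, a GTPase of transport from the endoplasmic reticulum to the Golgi, at 48.2%. RAB1A had a mean of 702 normalised counts, and the other genes of this paragraph had means of at most 84.1.

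Many of the lower genes shared a short word in the 3′ UTR. The sites below are shown because they carry that word in 8 of the called lower genes with the lowest adjusted p, with PPP2CB not shown. Each is written 5′ to 3′ along the messenger, from GENCODE release 29 on GRCh38, looked up by gene ID because the deposited files hold no coordinates. The 7-base word GTAACAA is in capitals.
SSR1: tttttctaaaGTAACAAatttggtttt
RRAGC: catgctcagtGTAACAAagggaattaa
CAV2: ggaaattgcaGTAACAAaagcacacaa
ZCCHC9: atacctgattGTAACAAtcatctttta
CTNNB1: tggtcgaggaGTAACAAtacaaatgga
RAB14: ttcatttgatGTAACAAaatgctatta
YWHAG: aatagtgattGTAACAAattgatctgt
H2AFZ: agaagttataGTAACAAacatttggtt
The SSR1 site lies at chr6:7289666-7289692 on the minus strand, in a 3′ UTR of 8721 bases. The RRAGC site lies at chr1:38838804-38838830, minus strand, and the H2AFZ site at chr4:99948145-99948171, minus strand, 301 bases into a UTR of 374 bases. The CAV2 site is at chr7:116506591-116506617 and the CTNNB1 site at chr3:41239811-41239837, both on the plus strand.

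A second word differed from the first by the substitution A4T, counted from the 5′ base of GTAACAA. It was picked after the values of all words had been seen. The sites below are from the called lower genes with the lowest adjusted p that have GTATCAA and no GTAACAA in the 3′ UTR, with GTATCAA in capitals and UBE2V2, the first of them, not shown.
LRRC8A: ctcggtcacaGTATCAAataaaatcta
COX6A1: ttctttacttGTATCAAatgatgactg
EPS15: tttacaatgtGTATCAAaactacctgt
GALNT1: ttatagtataGTATCAAatttctatat
LRRFIP1: cattccagtaGTATCAAacaataatgt
The LRRC8A site lies at chr9:128918004-128918030 on the plus strand, 1643 bases into a UTR of 1668 bases.

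CALCRL had neither word in its 3′ UTR of 3055 bases, and GTAACAA once in its coding sequence. The site lies in exon 9 of 15 of transcript ENST00000392370, at chr2:187363419-187363445 on the minus strand, with the word in capitals. Whether either siRNA was designed against it is not given in the sources used here.
CALCRL: taactctgttGTAACAAtcattcacct

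Of 10637 listed genes with an annotated 3′ UTR, 10.7% held GTAACAA. Among called genes, 150 of the 266 lower ones (56.4%) and 4 of the 115 higher ones (3.48%) held it. The word was reported before from these data, so the shares are a description. Among the 15 lower genes with the lowest adjusted p, 11 held it and another 2, UBE2V2 and LRRC8A, held GTATCAA alone. UBE2V2 had 3 copies of GTATCAA there and GTAACAA outside its UTR. The remaining 2 were CALCRL and CNRIP1.

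The median fold change was lower in genes with more copies in the 3′ UTR. The median log2 fold change was 0.01 for 9501 genes with no copy of GTAACAA, -0.11 for 981 genes with 1 copy, -0.20 for 126 genes with 2 copies and -0.21 for 29 genes with 3 or more. The share called lower rose over the same groups from 1.22% to 11.0%, 26.2% and 31.0%. Median UTR length rose with them too, from 1550 to 3155, 5364 and 6401 bases. Copy number was not compared at like length. Carriers also differed by the base after the word: with A after it, as in SSR1, RRAGC, CAV2, RAB14, YWHAG and H2AFZ, the median of 486 genes was -0.21 and 20.6% were called lower. With C, G or T after it, 9.45%, 11.7% and 10.5% were called lower. FAM46A, MDM2 and CNOT6 had 3 copies each and stood at 44.7%, 68.1% and 69.9% of control.

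Carriers had longer 3′ UTRs, of 3369 bases at the median against 1550 for genes without the word, and less G and C. Within UTRs of up to 500 bases, 7 of 26 carriers were called lower (26.9%), against 0.874% of 1487 genes without GTAACAA. In UTRs over 2000 bases the shares were 12.3% and 1.56%. Across 4 equal groups of genes ordered from low to high GC content, median log2 fold changes were -0.14, -0.11, -0.08 and -0.11 with GTAACAA and 0.00, 0.01, 0.02 and 0.02 without. In the enhancer deletion the same gene groups had medians of -0.22, -0.16, 0.04 and 0.24 with the word and -0.23, -0.18, 0.01 and 0.46 without. There both sets of medians rose with GC content. Carriers were lower than the other genes only in the group richest in GC, which held 63 carriers. What these medians depend on was not tested.

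**Figure D2:**
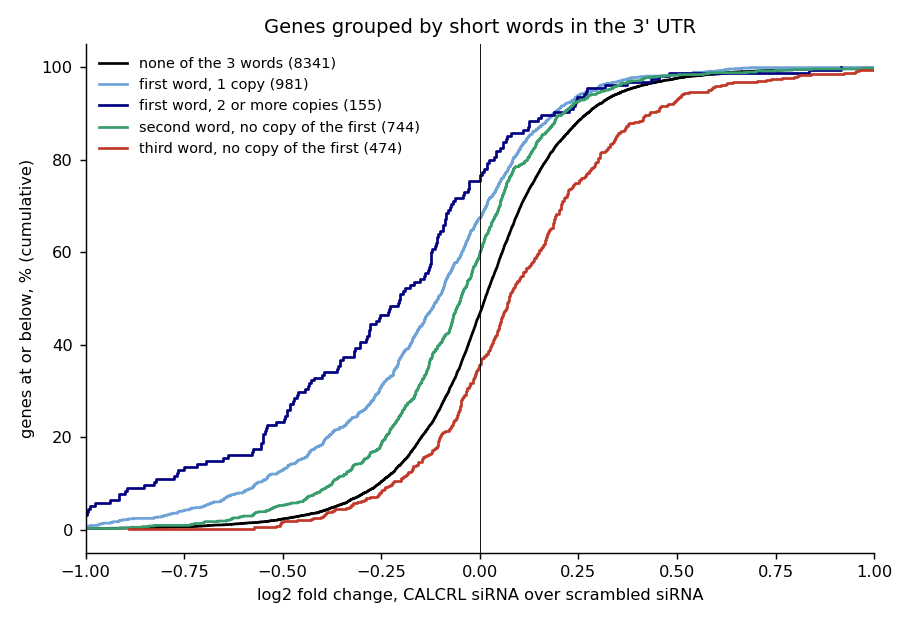
Cumulative percent of genes (vertical) at or below each log2 fold change (horizontal, limited to -1 to 1) for genes grouped by words in the 3′ UTR, where the first word is GTAACAA, the second GTATCAA and the third GACGTA. The curves of the first word lie left of the 8341 genes with none of the words, further left with 2 or more copies, and the curve of the third word lies to the right.

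Where GTAACAA occurred only upstream of the 3′ UTR, as in CALCRL, BNC1 and BIRC3, the median over 442 genes was -0.12 and 28 were called lower (6.33%). For GTATCAA without GTAACAA in the 3′ UTR the median over 744 genes was -0.05, with 33 called lower (4.44%). Some of these genes, UBE2V2 and TNRC6B among them, held GTAACAA upstream of the UTR, so the 2 groups overlap. The other 20 words that differ from GTAACAA by 1 base had medians between -0.01 and 0.03, with 1.19 to 2.34% called lower. Each was counted in genes without GTAACAA in the 3′ UTR. Neither word was found in the UTRs of 83 called lower genes (31.2%), CNRIP1, THBS1, SOX17, HEY2, FST, HS3ST1 and PPFIBP2 among them. Of these 83 genes, 20 held GTAACAA upstream of the UTR and 63, including those named, did not. Ranked by Wald statistic, the 100 lowest genes held GTAACAA in 72% of cases, the next 100 in 52%, then 47% and 35%. No mature microRNA of 2370 in RefSeq has a seed (bases 2 to 8) that pairs with all of GTAACAA or all of GTATCAA. Pairing with fewer bases was not tested, nor was what acts on these words.

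The higher genes were led by STC1, which encodes the secreted glycoprotein stanniocalcin-1. It rose from 650 to 1725 normalised counts, 2.65-fold (95% interval 2.34 to 3.01). Its adjusted p in the authors' deposited table was 9.85e-50 by the DESeq2 Wald test, and the next called higher gene, PPP2R1B, had 4.42e-13. PPP2R1B, a scaffold subunit of protein phosphatase 2A, rose 1.87-fold (1.61 to 2.18). CSF3, the granulocyte colony-stimulating factor, rose from 240 to 498 normalised counts, 2.07-fold (1.67 to 2.56). The proteoglycan-cleaving proteases ADAMTS4 and ADAMTS9 rose 1.83-fold and 1.60-fold.

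JAG1, a Notch ligand, rose from 252 to 478 normalised counts, 1.90-fold (1.51 to 2.38). TAPT1, a membrane protein linked to cilia, rose 2.25-fold, SLC7A2, a transporter of cationic amino acids, 1.94-fold, and WSB1, a substrate receptor of ubiquitin ligases, 1.75-fold. The tyrosine phosphatases PTPN1 and PTPRE rose 1.43-fold and 1.60-fold, and SMURF2, a ubiquitin ligase of the TGF-beta pathway, 1.42-fold. BOD1, a protein of chromosome attachment in mitosis, rose 1.65-fold, ZNHIT6, an assembly factor of small nucleolar ribonucleoproteins, 1.53-fold, and HCLS1, a cortactin homologue, 1.41-fold.

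By fold change, the further higher genes averaging 30 normalised counts or more were low in abundance. SEMA7A, a semaphorin, rose from 21.4 to 49.0 normalised counts, 2.29-fold (1.56 to 3.34), and TNFRSF11B, the decoy receptor osteoprotegerin, from 27.0 to 58.0, 2.15-fold (1.57 to 2.93). MFSD6, LZTFL1, SLC46A3, SLC35D1, GPR37 and PTPMT1 rose between 1.79-fold and 1.96-fold. Each of these 6 had a mean of at most 67.6 normalised counts.

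Another word, GACGTA, occurred in the 3′ UTRs of 32 of 115 called higher genes (27.8%), against 5.34% of all 10637 genes and 10 of 266 called lower genes (3.76%). It too was reported before from these data. The sites shown are from the called higher genes with the lowest adjusted p that hold it, with GACGTA in capitals and SLC7A2 not shown.
PTPN1: tttcaaaatgGACGTActggtttaac
TAPT1: cttttaccacGACGTAatctttccag
WSB1: tgtttttaaaGACGTAgaagatttat
JAG1: gttttatgatGACGTAcaagtagttc
MET: tggttttgtcGACGTAaacatttaaa
The JAG1 site lies at chr20:10639084-10639109 on the minus strand, 399 bases into a UTR of 1814 bases, and the PTPN1 site at chr20:50584376-50584401 on the plus strand. Among the 15 higher genes with the lowest adjusted p, 5 held the word, and STC1, PPP2R1B, ADAMTS9, CSF3 and ADAMTS4 did not. The 474 genes with GACGTA and no GTAACAA had a median log2 fold change of 0.07, with 30 called higher and 4 called lower. The 8341 genes with none of the 3 words had 79 called higher and 80 called lower. Where GACGTA and GTAACAA stood in the same UTR the median of 94 genes was 0.00, with 2 called higher and 6 called lower, RAB33B among the lower genes. No mature microRNA of the 2370 has a seed that pairs with all of GACGTA, and pairing with fewer bases was not tested.

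**Figure D3:**
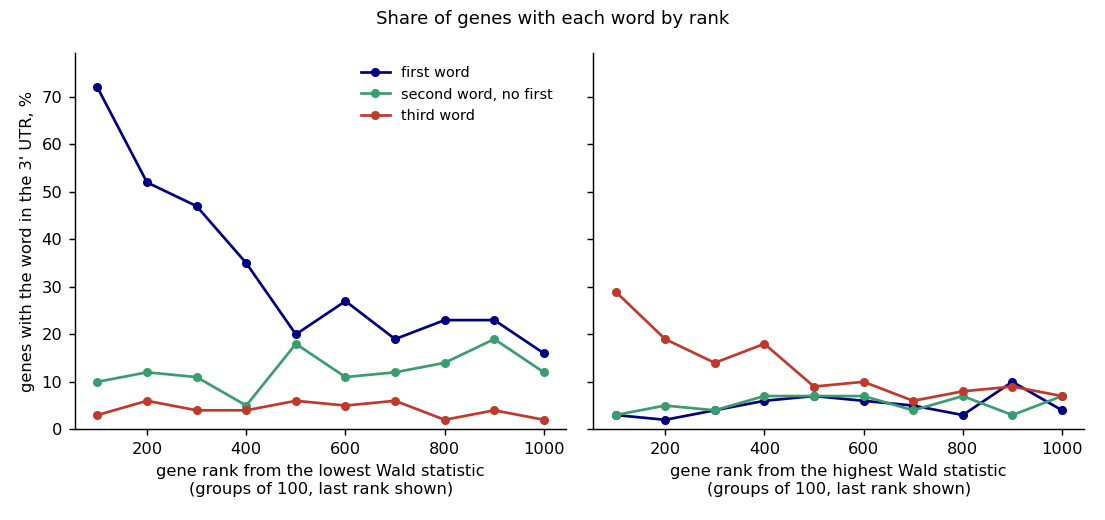
Percent of genes holding each word in the 3′ UTR (vertical) in successive groups of 100 genes ranked from the lowest (left panel) or highest (right panel) Wald statistic, the horizontal axis giving the last rank of each group. The first word, GTAACAA, falls from 72% to 16% over the 1000 lowest genes, and the third, GACGTA, from 29% to 7% over the 1000 highest.

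Gene lists were described by counts, beside the 3.46% of all genes called and their median of 0.00. The 24 lists held 808 listed genes, with 15 called higher and 58 called lower. In the list of CALCRL ligands, receptor and cyclic AMP signalling, 32 of 37 genes were listed, 1 was called higher and 3 lower, and the median was -0.08. Beside CALCRL and PRKACB, the regulatory subunit PRKAR2A of protein kinase A fell to 78.4% of control (67.9 to 90.6), from 2044 to 1603 normalised counts. GRK5, a kinase that desensitises G protein-coupled receptors, rose 1.43-fold (1.17 to 1.74) and held GACGTA in its 3′ UTR. PRKACB held 2 copies of GTAACAA in its 3′ UTR.

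Interferon-stimulated effectors were the list with the lowest median, -0.40. Of 49 listed genes 45 had values below 0, 12 were called lower and none higher. An unadjusted p under 0.05 was reached by 26 of the 49, against 12.0% of all genes. The same count was 17 of 38 for the RAB GTPases and 15 of 44 for the extracellular matrix, lists described below. IFIT1, an antiviral protein that binds foreign RNA, fell from 119 to 57.8 normalised counts, 48.7% of control (38.7 to 61.3). ISG15, a ubiquitin-like modifier, fell from 614 to 384, or 62.5% (49.8 to 78.4), and IFIT3, a partner of IFIT1, to 56.2%. DTX3L, a ubiquitin ligase, stood at 68.2%, SAMD9 at 66.6% and the nuclear body protein SP100 at 73.0%. The other 6 called members lay between 50.7% and 70.1% of control. Of the 12 called members, 2 held GTAACAA in the 3′ UTR, IFIT1 with 2 copies among them, and none held GTATCAA alone. Among the members named here, IFIT3, DTX3L and SAMD9 each had GTAACAA upstream of the UTR. In the list of RNA sensors and interferon signalling, ZNFX1, an antiviral RNA helicase, was the 1 called gene of 28, at 64.9% of control, and the median was -0.12.

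The promoters of IFIT1 and ISG15 are shown as examples of a motif of GAAA, 2 bases of any kind and GAAA again, the core of the interferon-stimulated response element, found on either strand and set in capitals, overlapping matches included. The sequences are RefSeq promoters on GRCh38.p14 and run from 250 bases before to 50 bases after the gene start. The IFIT1 promoter lies at chr10:89392373-89392672 and the ISG15 promoter at chr1:1013247-1013546, both on the plus strand. Motif and examples were chosen after the values were seen.
IFIT1: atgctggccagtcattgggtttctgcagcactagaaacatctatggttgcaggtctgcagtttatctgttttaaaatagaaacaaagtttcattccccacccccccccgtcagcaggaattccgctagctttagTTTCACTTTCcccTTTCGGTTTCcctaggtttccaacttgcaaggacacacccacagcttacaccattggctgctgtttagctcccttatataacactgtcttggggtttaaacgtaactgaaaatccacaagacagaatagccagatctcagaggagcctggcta
ISG15: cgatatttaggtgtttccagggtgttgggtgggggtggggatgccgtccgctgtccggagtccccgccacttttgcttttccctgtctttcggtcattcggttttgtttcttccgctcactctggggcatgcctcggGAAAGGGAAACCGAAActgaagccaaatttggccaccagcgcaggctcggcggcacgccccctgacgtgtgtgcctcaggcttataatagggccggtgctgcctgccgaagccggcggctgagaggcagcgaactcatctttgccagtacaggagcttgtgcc
The motif was present in 3.65% of 27305 RefSeq promoters and in 2.82% of the 9101 listed genes with a promoter sequence. It was present in 23 of 39 interferon effectors (59.0%), 7 of the 10 called lower and 16 of the 29 not called. Outside both interferon lists, 6 of 217 called lower genes had it (2.76%), and of 97 called higher genes none had it.

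Inflammatory genes moved in both directions. Of 32 listed genes, 6 were called higher and 2 lower, the median was 0.13, and none of the 32 held GTAACAA in the 3′ UTR. The list was chosen with earlier results of these data known and includes STC1, the leading higher gene, and TNFRSF11B. Its counts are therefore a description. Beside STC1, CSF3 and TNFRSF11B, the cytokine IL1B rose from 12.2 to 31.8 normalised counts, 2.60-fold (1.84 to 3.67), and the neutrophil chemokine CXCL1 from 1227 to 1942, 1.58-fold. CXCL3, a related chemokine, was the sixth. BIRC3, a ubiquitin ligase of NF-kappaB signalling, fell to 56.8% of control (49.4 to 65.3) in the same cells. The second lower gene was PTGS2, the inducible cyclooxygenase, at 72.7%.

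In the endothelial identity list, 1 of 47 genes was called higher, JAG1, and 4 lower, with a median of -0.05. SOX17, a transcription factor of arterial endothelium, fell to 61.6% of control (51.6 to 73.4), and HEY2, a Notch target of arterial cells, to 59.8% (49.1 to 72.8). EGFL7, a secreted endothelial factor, stood at 72.6% and APLN, which encodes the peptide apelin, at 80.9%. None of these 4 held GTAACAA or GTATCAA in the 3′ UTR. The TGF-beta and BMP list had 2 of 37 called higher, SMURF2 and SMAD3, and 1 lower, the activin antagonist FST at 62.6% of control, with a median of -0.07.

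Matrix and surface genes also split. Of 44 genes of the extracellular matrix and integrins, 2 were called higher, ADAMTS9 and ADAMTS4, and 5 lower, with a median of -0.06. The lower genes included POSTN (70.7% of control), a matricellular protein, the collagen chain COL5A1 (82.6%), the laminin chain LAMA5 (73.0%) and the fibrillin FBN2 (65.6%). In heparan sulfate synthesis 3 of 24 genes were lower and none higher, with a median of 0.06: HS3ST1, the core protein HSPG2 at 60.6% and PAPSS1, which makes the sulfate donor, at 64.2%. In coagulation and fibrinolysis, 1 of 21 was higher, the protease inhibitor TFPI2 at 1.36-fold, and 2 lower, THBS1 at 70.1% and the cargo receptor LMAN1 at 82.4%. The median of that list was 0.00.

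RAB GTPases of membrane traffic had 6 of 38 called lower and 1 higher, with a median of 0.06. RAB14, RAB1A, RAB32 and RAB8B stood at 51.4%, 48.2%, 77.8% and 79.5% of control, and RAB33B fell from 93.2 to 49.4 normalised counts. Of the 6 lower genes, 5 held GTAACAA in the 3′ UTR, RAB32 being without it. In the whole list 11 of the 38 held it. The share was 10.7% of all genes with an annotated 3′ UTR and 56.4% of those called lower. RAB31 rose 1.24-fold. In the ER translocon list SSR1 and STT3B, an oligosaccharyltransferase subunit at 77.0%, were the 2 called of 35, and both held GTAACAA there. RRAGC was the 1 called of 33 genes of the Rag and mTORC1 list. Of 35 genes of the Argonaute and small RNA machinery 4 were called lower and none higher, with a median of -0.10: the Argonaute partner TNRC6B at 55.2% of control, the decapping enzyme DCP2 at 62.4%, and the deadenylase subunits CNOT6 and CNOT11 at 69.9% and 70.7%. In their 3′ UTRs DCP2 and CNOT6 held GTAACAA, TNRC6B held GTATCAA alone and CNOT11 held neither, and TNRC6B and CNOT11 each had GTAACAA upstream of the UTR.

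DNA replication had 3 of 53 genes called lower (5.66%), MCM7, CDC6 and POLD3, at 77.7%, 70.9% and 69.0% of control, and none higher, with a median of -0.16. Of its 53 genes 37 had values below 0, and 13 had an unadjusted p under 0.05. For G2/M and mitosis 1 of 53 was called, the phosphatase CDC25A at 69.5%, with a median of -0.07. Among p53 targets the 1 called of 35 was MDM2, the ubiquitin ligase for p53. CTGF, a secreted matricellular protein at 69.2%, and FOSL2 at 80.0% were the 2 called of 25 AP-1 and immediate early genes, and CTGF was also the 1 called of 28 YAP and TEAD targets. SLC7A11, the cystine transporter, at 73.1% and SHMT2, a mitochondrial serine enzyme, at 71.6% were the 2 called of 42 ATF4 and unfolded protein genes. SLC7A11 and the quinone reductase NQO1 (79.5%) were the 2 called of 25 KLF and flow genes.

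The last lists held 1 called gene or none. SC5D was the 1 of 31 sterol genes and BAG2, a co-chaperone at 71.2% of control, the 1 of 30 heat shock genes. The glucose transporter SLC2A3, at 1.36-fold, was the 1 of 36 glycolysis and hypoxia genes. None of the 13 mitochondrially encoded messengers was called by the DESeq2 Wald test, and none had an unadjusted p under 0.05. MT-CO3 stood at 84.2% of control (69.7 to 102) and MT-ND6 at 77.5% (58.4 to 103).

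**Figure D4:**
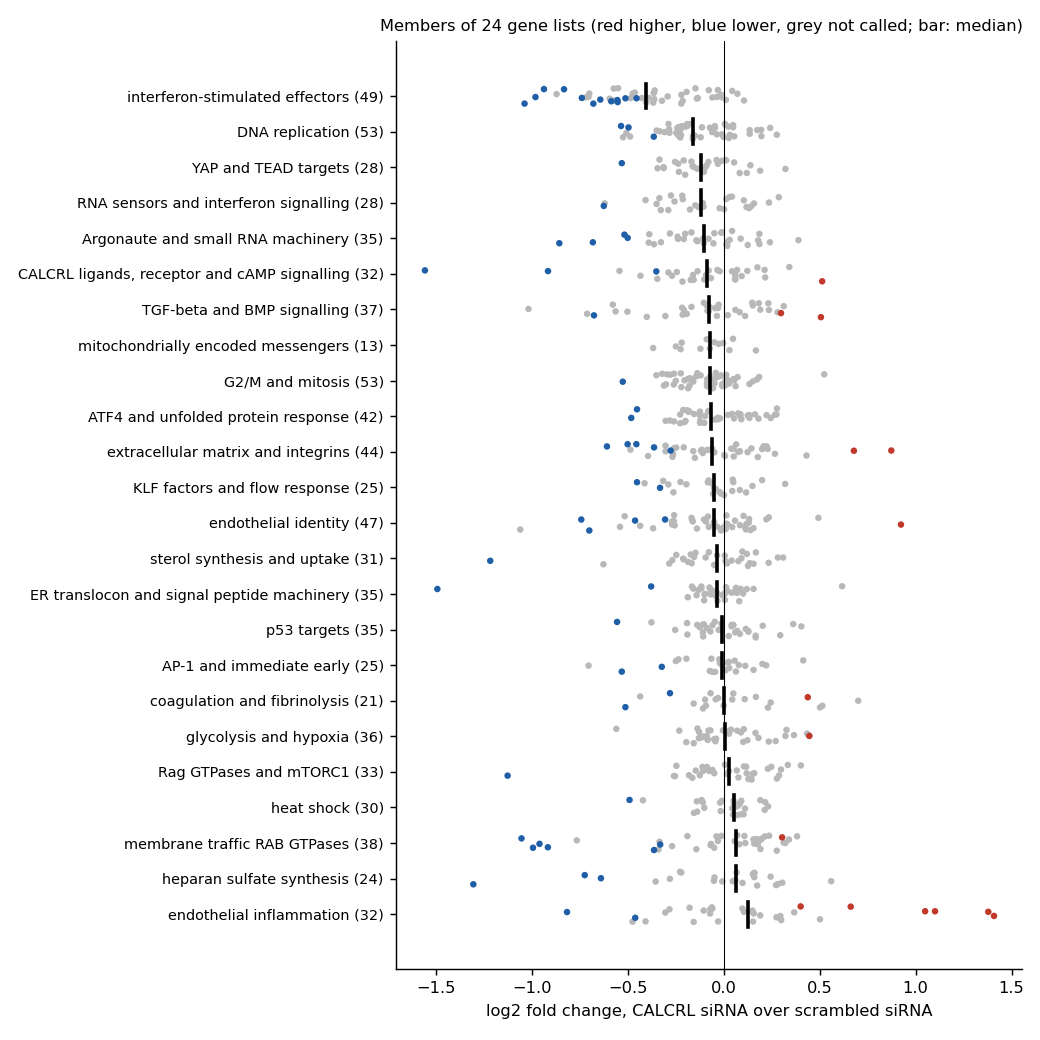
Log2 fold changes (horizontal) of the listed members of the 24 gene lists, ordered by median, with the number of listed genes in brackets; red and blue points are called higher and lower, grey points were not called, bars mark medians. The interferon effectors stand lowest, with 12 called lower and a median of -0.40, and inflammation highest, with 6 called higher and a median of 0.13. All lists were chosen with earlier results of these data known.

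The enhancer deletion offers a second lowering of CALCRL without this siRNA, at another time and with another delivery, and shares no libraries with the siRNA experiment. In it 15.8% of genes were called, and its median standard error was 0.41 against 0.17 here. On the log2 scale CALCRL changed in the authors' deposited tables by -1.47 (SE 0.43, adjusted p = 0.00962) in the deletion and by -1.56 under siRNA, by their DESeq2 Wald tests. The difference between the 2 fold changes was -0.09 (adjusted p = 0.924 by a normal test of the difference over 10891 genes). Of those genes 13.7% differed. All of the 48 genes named for the lowest adjusted p or largest fold under siRNA were in both tables. Of these, 22 differed between the experiments, 8 were called in the deletion, and 5 of those 8 in the same direction. CALCRL, which both experiments were made to lower, is among the 5. The 48 were picked for extreme siRNA values, which enter the difference, so 22 of 48 cannot be set against the 13.7%. With test statistics divided by their robust SD no difference remained below an adjusted p of 0.05 in the same normal test, with 446 genes at an unadjusted p under 0.05, so each of these 22 calls depends on the spread assumed.

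Several leading genes did not move alike in the 2 experiments. In the deletion RRAGC stood at 159% of its control (95% interval 119 to 211) and SERBP1 changed by 0.72 on the log2 scale (SE 0.19) in the authors' deposited table, and both were called higher there. SSR1, at 111% of control (87.2 to 141), and STC1, with a log2 fold change of 0.00 in the authors' deposited table, were not called in the deletion. CXCL1 rose under siRNA and had a log2 fold change of -1.63 in the deletion (adjusted p = 0.00193, DESeq2 Wald test, authors' deposited table). CTNNB1 and RAB14 were called lower in both, with log2 fold changes of -0.83 and -0.96 under siRNA and -1.06 and -1.03 in the deletion in the authors' deposited tables. Over the 148 called lower carriers of GTAACAA listed in the deletion, 94 were below 0 there and 54 above, with a median of -0.18. The deletion median over all 1111 carriers was -0.15, and genes without the word in the group lowest in GC had -0.23.

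**Figure D5:**
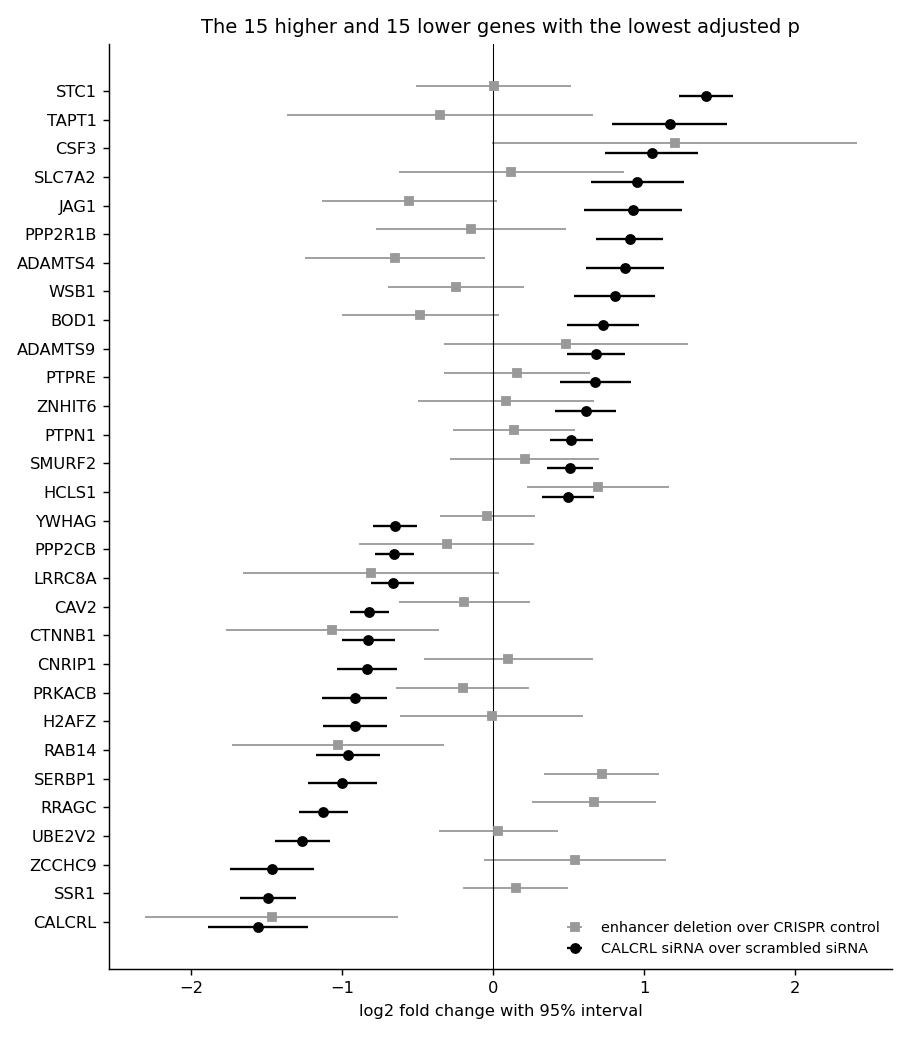
Log2 fold changes with 95% intervals (horizontal) of the 15 higher and 15 lower genes with the lowest adjusted p, black circles for CALCRL siRNA over scrambled siRNA and grey squares for enhancer deletion over its CRISPR control. CALCRL overlaps in both at -1.56 and -1.47, and RRAGC and SERBP1 lie on opposite sides of 0.

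At the threshold, the called genes just inside were SEPW1, TTC39C, TM2D1, C2orf68 and LRRC32, with adjusted p-values of 0.0486 to 0.0498 in the authors' deposited table (DESeq2 Wald test). GSE1, SLC39A9, ITGB5, AC011526.1 and MGEA5 lay just outside, at up to 0.0542. GSE1 and C2orf68, on opposite sides of the threshold, lay close together at 154% and 155% of control. With 4 libraries a group, a Student t reference of 6 degrees of freedom in place of the normal one left 5 calls, STC1, SSR1, RRAGC, UBE2V2 and CAV2, and CALCRL at an adjusted p of 0.102. Counting is not stated to use strand in the sources used here, so genes that overlap another gene, and genes such as H2AFZ and SERBP1 with near-identical copies, are uncertain.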

How the data were processed

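Only the authors' deposited tables of their own comparisons were used, so no test on single libraries, depth per library or check for outlying or duplicated libraries could be made. Per the file headers, each row of the deposited tables gives a mean normalised count, a log2 fold change and standard error, the Wald score, and the p-value before and after adjustment. The file names name DESeq2, while the submitters' processing notes list edgeR 3.24.3 and the build hg19; aligner, annotation and filters were not given in the sources used here. The deposited statistic equalled the log2 fold change over its standard error, and adjusted p-values equalled Benjamini-Hochberg values recomputed from all rows. The precision of a value is that standard error: its median was 0.13 at means of 100 or more and 0.39 under 30. Mean normalised counts ranged from 4.53 to 27326, with a median of 130.

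Groups were taken from sample titles. The genes described, the 24 gene lists, 6 marker lists, words and tests were chosen with earlier results of these data known. Genes were named by rule: CALCRL; the 15 called genes of each direction with the lowest adjusted p; the 15 with the largest fold among means of at least 30; up to 6 called members of each list, or the 2 lowest p where none was called; and 5 genes on each side of the threshold. MET, COX6A1, EPS15, GALNT1, LRRFIP1, CXCL3, PTGS2 and the markers are outside that rule and were picked with their values in view. The longest annotated 3′ UTR of a gene came from GENCODE 29 (GRCh38), found for 10637 genes; 11099 matched by gene ID. Promoters and microRNAs came from RefSeq. Python 3.11.15, pandas 2.3.3, scipy 1.17.1 and statsmodels 0.14.6 were used, and the steps were tested on simulated data. Alternatives were a t reference, statistics divided by their robust SD, a mean count minimum of 30, leaving out genes of excess standard error, recentring, a GC trend (lowess span 0.3) removed, and other definitions of the word.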

Additional observations from a re-analysis of the deposited data

Results flagged for a closer look

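The result flagged was a difference between the siRNA and the enhancer deletion, which 22 of the 48 genes named for their adjusted p or fold change passed by the test of the difference itself (normal reference, Benjamini-Hochberg over 10891 genes). Because the 48 were picked for extreme siRNA values, which enter the difference, a high share passing is partly fixed by that choice. Values below are the siRNA log2 fold change minus the deletion log2 fold change.

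Of the genes that fell under siRNA, 12 passed. ZCCHC9 had a difference of -2.00, RP11-157P1.4 -1.81, RRAGC -1.79, SERBP1 -1.72, FAM46A -1.70 and SSR1 -1.64. UBE2V2 had -1.30, CNRIP1 -0.94, H2AFZ -0.90, PRKACB -0.71, CAV2 -0.63 and YWHAG -0.61. GTAACAA was present in the 3′ UTR of 9 of these, all but UBE2V2, CNRIP1 and the noncoding RP11-157P1.4. RRAGC and SERBP1 were the 2 called higher in the deletion.

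Of the genes that rose under siRNA, 10 passed. SEMA7A had a difference of 3.16, MFSD6 2.60, LZTFL1 2.30, ADAMTS4 1.52, TAPT1 1.52, JAG1 1.48, STC1 1.40, BOD1 1.21, PPP2R1B 1.05 and WSB1 1.05. LZTFL1 was the 1 called lower in the deletion. SEMA7A and MFSD6 rest on means of 35.2 and 41.3 normalised counts under siRNA. The experiments differ in reagent, delivery and time, which cannot be told apart in these differences.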

How the results depend on the processing

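No paired analysis was possible because values of single libraries were not at hand, so neither a replicate block nor leaving out each replicate was run. With a Student t reference of 6 degrees of freedom, 5 genes were called (1 higher, 4 lower), 774 had an unadjusted p under 0.05, and CALCRL had an adjusted p of 0.102. With statistics divided by their robust SD of 1.11, 265 calls were kept, 62 of them higher and 203 lower. That setting left 0 differences between siRNA and deletion, by the normal test, against 1493, with 446 at an unadjusted p under 0.05 against 3084. With a mean count minimum of 30, leaving out 220 genes of excess standard error, recentring or removing the GC trend, calls kept were 382 of 382, 390 of 390, 383 of 390 and 358 of 384.

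The share of called lower genes with the word moved with its definition: 19.0% in the last 500 bases of the transcript (all genes 2.99%), 62.8% in any annotated 3′ UTR (12.9%), 74.4% for TAACAA (36.1%) and 37.6% for GTAACAA followed by A (4.57%). Under the t reference, added after seeing the data, it was 75% of 4 genes. Leaving out carriers of GTAACAA or GACGTA left 704 of the 808 list members and 47 of the 73 called ones. Leaving out those of GTATCAA too, also added later, left 655 members and 42 called. No called gene or count above reversed its direction, but 5 list medians near 0 changed sign. They were those of p53, AP-1, sterol, glycolysis and coagulation genes, which lay between -0.03 and 0.01 and moved to between -0.03 and 0.03 with a mean count minimum, recentring or carriers left out. CALCRL had adjusted p-values from 1.57e-17 to 0.102 over its alternatives. At the median standard error, log2 changes under 0.33 do not pass even an unadjusted test.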
